A study of Mus musculus with 32 samples.

Results

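Cadherins and protocadherins are the subject here: the genes named Cdh with a number, or with names starting with Pcdh, Celsr or Clstn. Of the 16593 named genes on the array, 84 fitted that description and 50 of them had a probe detected above background (detection p under 0.05) on at least 4 of the 32 arrays. These 50 genes, read by 62 detected probes, are called members below. They comprise 4 of 4 classical type I cadherins, 9 of 10 type II cadherins, 3 of 5 other cadherins, 22 of 50 clustered protocadherins, 3 of 3 delta-1 and 2 of 4 delta-2 protocadherins, 2 of 2 other protocadherins, 3 of 3 Celsr genes and 2 of 3 calsyntenins. Pcdha10, Pcdhb4 and Cdh19 came closest to the limit from above, with 4, 5 and 7 arrays, and Pcdhga2, Pcdhgb2 and Pcdhgb7 from below, with 3 arrays each.

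RNA came from olfactory bulbs of mice of the mixed strain C57/BL6;129/Ola; CD1, with 1 Illumina bead array per sample and 8 samples in each of 4 groups. Embryos at E18.5 had no Cre (nestin +/+), the controls being Tshz1 GFP/+ and the mutants Tshz1 GFP/delta. Young adults at P30 carried nestin +/Cre, the controls with Tshz1 flox/+ and the mutants with Tshz1 flox/GFP. No group was wild type: each control carried a GFP or a flox allele, the latter together with nestin-driven Cre. Tshz1 encodes a zinc finger transcription factor, and nestin-driven Cre acts in neural progenitors, so that cells of other origin keep the flox allele. The submitters exchanged the names control and mutant between the P30 groups in a later correction, and the corrected names are used. Tshz1 itself was not analysed here, so the names were not checked against it. The labels do not say that replicates are separate animals, and p-values therefore measure only the spread between these samples.

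Cadherins are calcium-dependent adhesion proteins that bind their like on neighbouring cells. The classical types I and II hold onto the actin cytoskeleton through catenins. Clustered protocadherins, encoded in the alpha, beta and gamma clusters on mouse chromosome 18, give single neurons their own combination of surface isoforms, which serves self-recognition of dendrites. Delta protocadherins act in cell sorting, axon outgrowth and synapse formation. Celsr proteins are large seven-pass cadherins of planar cell polarity, and calsyntenins are synaptic cadherin-like proteins that also bind kinesin light chain. In the olfactory bulb such molecules take part in the sorting of sensory axons and in the placing of interneurons that migrate in.

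Between 49.3% and 55.2% of the probes were detected on the E18.5 arrays and between 40.1% and 49.3% on the P30 arrays. P30 mutant replicates 1 and 2 stood apart, with 40.2% and 40.1% detected and the highest scores on the first principal component of the P30 arrays. At E18.5 control replicates 6 and 8 had the highest such scores. Replicates 1 to 4 of each age lay on one chip (A) and 5 to 8 on another (B), and each age had chips of its own, so that age, alleles and chip cannot be told apart in a comparison of ages. Markers of the labelled tissue were present, with 10 of 12 bulb interneuron and granule cell markers and 10 of 12 mitral and tufted cell markers measured. Levels are log2 normalized intensities. Each age was normalized on its own for the mutant comparisons, and the 32 arrays together where ages are compared, so levels from these 2 scales are not interchangeable. A gene is read by its brightest detected probe unless stated, and levels of different genes are not comparable.

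Detection itself differed by class and age. Of the 84 genes, those detected on at least 4 of 8 arrays numbered 41 for E18.5 controls and 43 for E18.5 mutants. They numbered 33 for P30 controls and 31 for P30 mutants. The clustered protocadherins accounted for most of the difference between ages, with 17, 19, 11 and 11 of their 50 genes in the same order of groups. Within them the gamma cluster had 5, 6, 1 and 2 of 20 genes, the beta cluster 9, 10, 8 and 7 of 22, and the alpha cluster 3, 3, 2 and 2 of 8. The share of all probes detected moved the same way between the ages, and its part in these counts was not tested. A probe for 1 gene of a cluster may read exons shared within the alpha or gamma cluster, or a closely similar neighbour, so single members of the clusters are uncertain.

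**Figure D1:**
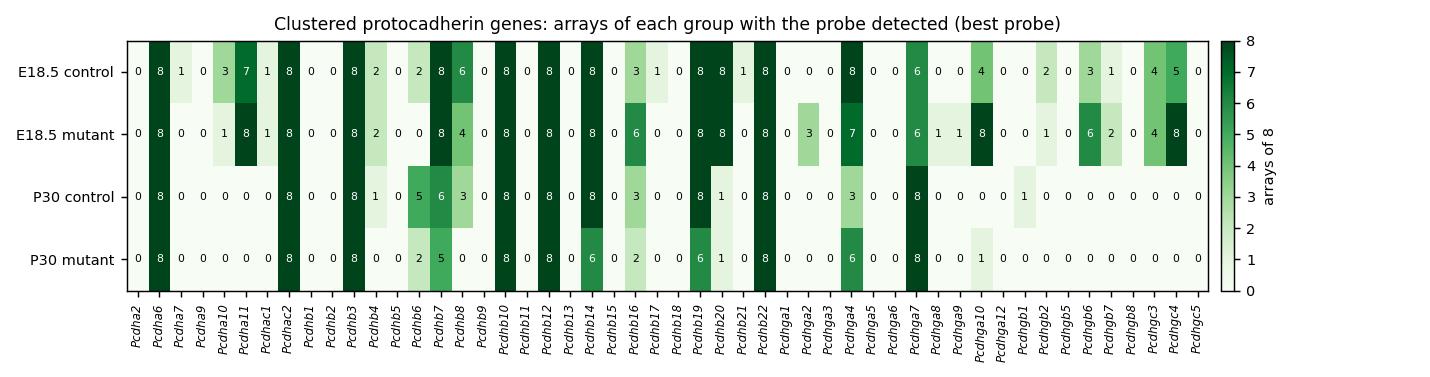
Number of arrays, of 8 in each group (rows), on which each clustered protocadherin gene (columns) had a probe detected above background, taking its most often detected probe. Pcdha6, Pcdhac2, Pcdhb3, Pcdhb10, Pcdhb12 and Pcdhb22 were detected on 8 arrays of every group, and Pcdhgc3 and Pcdhgc4 on 0 arrays at P30.

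In the mutant comparisons 3 members passed the threshold (adjusted p under 0.05, limma with Benjamini-Hochberg adjustment over all genes): Cdh22 at E18.5 and Pcdh10 and Pcdh20 at P30. Each was lower in the mutants. They were 1 of 47 members tested at E18.5 and 2 of 37 at P30, where 0.581% and 4.33% of all genes passed. Their promoters, 250 bases before to 50 after the RefSeq start on build GRCm38, are shown because these members passed. Capitals mark matches on either strand to 4 motifs. The first motif searched was the GC box, with the letters GGGCGG. The second was the core of the cAMP response element, with the letters TGACG. The others were the TATA box, with the letters TATAAA, and the E-box, with the letters CANNTG. The windows are chr2:165234688-165234987 on the minus strand for Cdh22, chr3:45378148-45378447 on the plus strand for Pcdh10 and chr14:88471347-88471646 on the minus strand for Pcdh20.
Cdh22: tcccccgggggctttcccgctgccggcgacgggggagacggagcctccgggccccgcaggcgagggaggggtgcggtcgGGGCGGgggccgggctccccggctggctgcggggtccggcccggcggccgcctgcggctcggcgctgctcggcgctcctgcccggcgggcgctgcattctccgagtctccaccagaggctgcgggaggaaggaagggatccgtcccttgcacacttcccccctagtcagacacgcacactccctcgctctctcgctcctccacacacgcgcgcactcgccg
Pcdh10: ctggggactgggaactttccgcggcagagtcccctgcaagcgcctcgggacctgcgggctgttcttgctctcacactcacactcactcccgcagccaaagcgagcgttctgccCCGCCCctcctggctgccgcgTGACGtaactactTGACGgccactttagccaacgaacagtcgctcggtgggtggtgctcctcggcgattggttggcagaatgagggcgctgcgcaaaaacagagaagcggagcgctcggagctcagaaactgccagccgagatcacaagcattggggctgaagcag
Pcdh20: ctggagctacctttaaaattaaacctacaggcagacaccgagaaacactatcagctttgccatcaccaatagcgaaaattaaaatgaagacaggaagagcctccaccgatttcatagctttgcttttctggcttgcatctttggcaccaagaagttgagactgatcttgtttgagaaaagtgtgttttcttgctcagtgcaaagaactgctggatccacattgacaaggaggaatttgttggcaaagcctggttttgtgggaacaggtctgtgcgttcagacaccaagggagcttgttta
The Cdh22 window is 76.3% GC with 1 GC box, and the Pcdh10 window is 62.3% GC with 1 GC box and 2 matches to the cAMP element core. The Pcdh20 window is 43.7% GC, below the median of 52.7% over 27025 promoters of this length, and holds no match to the 4 motifs. Its CpG count is 0.281 of that expected from base composition, against 0.871 for Cdh22 and 0.824 for Pcdh10. Of all 27025 promoters, 35.9% hold the GC box, 21% the cAMP element core, 14.2% the TATA box and 72.1% the E-box. No match overlapped another. Promoters of 18 of the 50 members were in the table used. These matches describe the letters only.

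At E18.5, 1 cadherin gene passed the threshold between mutants and controls, Cdh22, which was lower. Cdh22 is a type II cadherin on chromosome 2. Across the 8 controls its level was 6.19 at lowest, 6.80 at the median and 7.97 at highest. In the 8 mutants it was 5.61, 5.89 and 6.19. The highest mutant, replicate 3, just exceeded the lowest control, replicate 5, so the groups overlapped at that point alone. The mean fell from 6.82 ± 0.56 (SD, n = 8) to 5.89 ± 0.21 (SD, n = 8), a log2 change of -0.93 (SE 0.19, adjusted p = 0.0283, limma), or 1.91-fold lower. Its probe was detected on 8 control and 5 mutant arrays. Taken by chip, the change was -0.80 (A) and -1.06 (B). In limma the adjusted p rose to between 0.0542 and 0.0676 when control replicate 1, 3 or 8, or mutant replicate 2, 4, 5, 7 or 8, was left out. Less Cdh22 RNA per cell and fewer cells that make it cannot be told apart in whole bulbs, here or in any result below.

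Of 47 members tested at E18.5, 1 passed the threshold (Cdh22), against 0.581% of 10852 genes, of which 0.507% were lower and 0.0737% higher. Positive changes numbered 24 and negative ones 23, with a median of 0.0039 where the median of all genes was -0.0053. The median absolute change was 0.155 over members and 0.119 over all genes. No member's groups were free of overlap, against 0.341% of all genes (0.304% lower and 0.0369% higher). At an unadjusted p under 0.05 there were 4 members in limma, 1 higher and 3 lower. The share of all genes at an unadjusted p under 0.05 is not given, so such counts cannot be set against it, here or below. Of 10 bulb interneuron and granule cell markers measured, 6 fell at E18.5. Their mean level ran from 11.02 to 11.35 in controls and from 10.59 to 10.8 in mutants, and the part of this in the Cdh22 result was not tested.

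The next members at E18.5 did not pass. Pcdh9, a delta-1 protocadherin, ranged from 4.89 to 6.51 (median 6.24) in controls and from 5.99 to 7.50 (median 6.71) in mutants. The difference was 0.71 (SE 0.25, adjusted p = 0.379, limma), with detection on 5 and 8 arrays. Pcdhb10, of the beta cluster, differed by -0.40 (SE 0.14, adjusted p = 0.392, limma), with medians of 7.05 and 6.69. Celsr2, a planar polarity cadherin, differed by -0.38 (SE 0.16, adjusted p = 0.514, limma), with medians of 10.94 and 10.53. Pcdh17, a delta-2 protocadherin, differed by 0.26, the type II cadherin Cdh7 by 0.32, Pcdhb3 by -0.20 and Pcdhb12 by -0.26, with adjusted p between 0.555 and 0.607 in limma. The groups overlapped in each of these. By class, the 21 clustered protocadherins measured ranged from -0.40 to 0.34 with 10 positive and 11 negative values, the 4 type I cadherins from -0.15 to 0.11, and the type II cadherins other than Cdh22 reached at most 0.32.

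At P30 2 protocadherins were lower in the mutants, Pcdh10 and Pcdh20. Pcdh10, a delta-2 protocadherin that binds the WAVE actin regulators, lies on chromosome 3. Its level was 8.06, 9.24 and 9.68 (lowest, median and highest) in controls and 7.69, 8.22 and 8.72 in mutants. Control replicate 8 lay at 8.06, apart from the other controls, which began at 8.93, above the highest mutant. The mean fell from 9.14 ± 0.49 (SD, n = 8) to 8.30 ± 0.36 (SD, n = 8), a log2 change of -0.84 (SE 0.21, adjusted p = 0.0183, limma), or 1.79-fold. Taken by chip, it was -1.15 (A) and -0.53 (B). Pcdh10 had 3 detected probes: tested probe by probe, this one gave an adjusted p of 0.0192, and the others changed by -0.50 (adjusted p = 0.289) and -0.47 (adjusted p = 0.220) in limma. With the 32 arrays normalized together the probe at -0.50 became the brightest, and the gene no longer passed (-0.51, adjusted p = 0.190, limma). At E18.5 the probe that fell at P30 differed by -0.11 and the other probes by 0.16 and -0.14, without passing.

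Pcdh20, a protocadherin outside the clusters and the delta families, lies on chromosome 14. Its level was 7.61, 9.22 and 9.80 in controls and 7.64, 7.99 and 8.56 in mutants. Control replicate 5, at 7.61, lay below every mutant, and control replicate 2, at 8.39, lay within the mutants' range. The mean fell from 8.99 ± 0.69 (SD, n = 8) to 8.03 ± 0.32 (SD, n = 8), a log2 change of -0.96 (SE 0.24, adjusted p = 0.0205, limma), or 1.95-fold. By chip it was -0.89 (A) and -1.04 (B). With median scaling the change was -1.04 and no longer passed (adjusted p = 0.0811, limma), nor did it without a detection filter (adjusted p = 0.0681, limma). At E18.5 Pcdh20 differed by -0.21 between medians of 9.08 and 8.63.

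**Figure D2:**
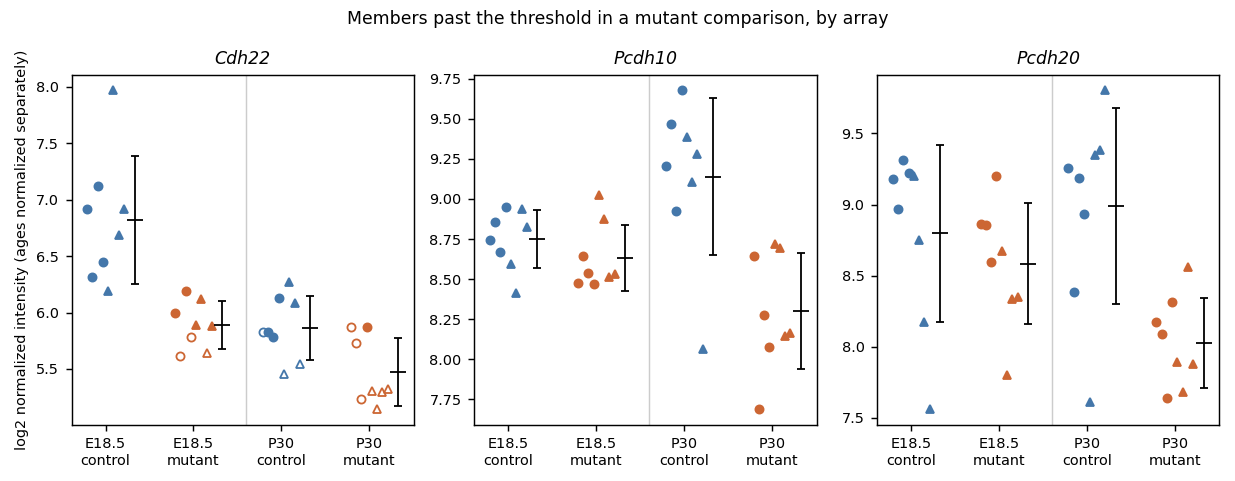
Level on each array (log2 normalized intensity, y axis) of Cdh22, Pcdh10 (the probe used at P30) and Pcdh20 in the 4 groups. Circles are chip A, triangles chip B and open symbols arrays where the probe was not detected, with bars for mean and SD, and ages normalized separately. Cdh22 mutants at E18.5 sit between 5.61 and 6.19, and all but 1 of the P30 controls of Pcdh10 lie above the highest mutant.

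Of 37 members tested at P30, 2 passed, both lower, against 4.33% of 9928 genes, of which 2.33% were lower and 2% higher. Positive changes numbered 18 and negative ones 19, with a median of -0.0073 where all genes had 0.012. The median absolute change was 0.253 over members and 0.178 over all genes. No member's groups were free of overlap, against 1.12% of all genes (0.594% lower and 0.524% higher). Without mutant replicates 1 and 2, which stood apart, Pcdh10 and Pcdh20 changed by -0.80 (adjusted p = 0.0241) and -1.0 (adjusted p = 0.0238) in limma. In that fit Cdh6 and Cdh4 passed as well. At P30, 5 of 10 bulb interneuron and granule cell markers fell and 1 rose, with a mean level of 10.79 to 11.45 in controls and 10.39 to 11.11 in mutants. Of 8 microglial markers 4 rose, with means of 7.20 to 7.73 in controls and 7.67 to 9.07 in mutants. Other lists were also higher on average in mutants. Cortical and striatal neuron markers had means of 6.57 to 6.92 in controls and 6.97 to 7.41 in mutants, without overlap, with 1 of 6 past the threshold (Ppp1r1b). Mitral and tufted cell markers ran from 9.62 to 10.09 and from 10.06 to 10.57, with 3 of 9 higher and 1 lower, and astrocyte markers from 10.4 to 10.82 and from 10.75 to 11.09, with 1 of 8 higher (Gfap). The part of these in the changes of Pcdh10 and Pcdh20 was not tested.

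Other members at P30 stayed short of the threshold, some of them narrowly or only under some settings. Cdh3, the placental cadherin of type I, was detected on 0 control and 4 mutant arrays. Its level was 4.92, 5.05 and 5.34 in controls and 5.19, 5.53 and 6.78 in mutants, with mutant replicate 1 far above the rest. The adjusted p was 0.0740 in limma, and no fold is given, since the control probe was not well above background and the bound did not exceed 1. In fits of the P30 arrays alone the probe met the detection filter only through the mutants. A higher value in mutants was thus set in advance there, and the p-values of those fits add no support for it. Cdh3 passed with the chip as a fixed block (adjusted p = 0.0479), with the 32 arrays normalized together (adjusted p = 0.00435) and with the deposited normalized values (adjusted p = 0.0233) in limma. Cdh6, a type II cadherin, was 6.40, 7.39 and 7.65 in controls and 7.29, 7.83 and 8.36 in mutants, a difference of 0.65 (SE 0.22, adjusted p = 0.0985, limma). Without mutant replicates 1 and 2 it became 0.83 (adjusted p = 0.0261, limma). Pcdh17 differed by -0.56 (SE 0.19, adjusted p = 0.0996, limma), with medians of 11.08 and 10.51. Leaving out mutant replicate 5 brought Cdh3 (adjusted p = 0.0443) and Pcdh17 (adjusted p = 0.0457) past the threshold in limma, while without mutant replicates 1 and 2 Pcdh17 was at -0.36 (adjusted p = 0.265, limma).

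Pcdhb14 of the beta cluster differed by -0.58 (adjusted p = 0.123), Cdh20 of type II by -0.47 (adjusted p = 0.164) and Cdh4, the retinal cadherin of type I, by -0.43 (adjusted p = 0.188, limma). Without mutant replicates 1 and 2, Cdh4 was at -0.59 (adjusted p = 0.0418), Cdh20 at -0.46 (adjusted p = 0.206) and Pcdhb14 at -0.32 (adjusted p = 0.312, limma). With the 32 arrays normalized together Pcdh17, Pcdhb14, Cdh20, Cdh4 and Cdh6 passed as well, with adjusted p from 0.0178 to 0.0327 in limma. The smallest of these belongs to Cdh20, detected on 7 control and 3 mutant arrays at P30. Its probe met the detection filter only through the P30 controls. A lower value in mutants was thus favoured in advance, and its p-values add no support for it. Cdh22, the gene lower at E18.5, differed by -0.39 at P30 (SE 0.16, adjusted p = 0.216, limma), with medians of 5.83 and 5.32 and detection on 5 control and 1 mutant arrays. On the P30 arrays the Cdh22 probe likewise met the detection filter only through the controls. The 13 clustered protocadherins tested at P30 had 10 negative and 3 positive values, from -0.58 to 0.27, and 0 passed in limma, with 1 at an unadjusted p under 0.05. Both delta-2 members were negative, and both Celsr genes and both calsyntenins tested were positive, at most 0.37. Clstn1, at 0.34, was at 0.02 without mutant replicates 1 and 2.

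**Figure D3:**
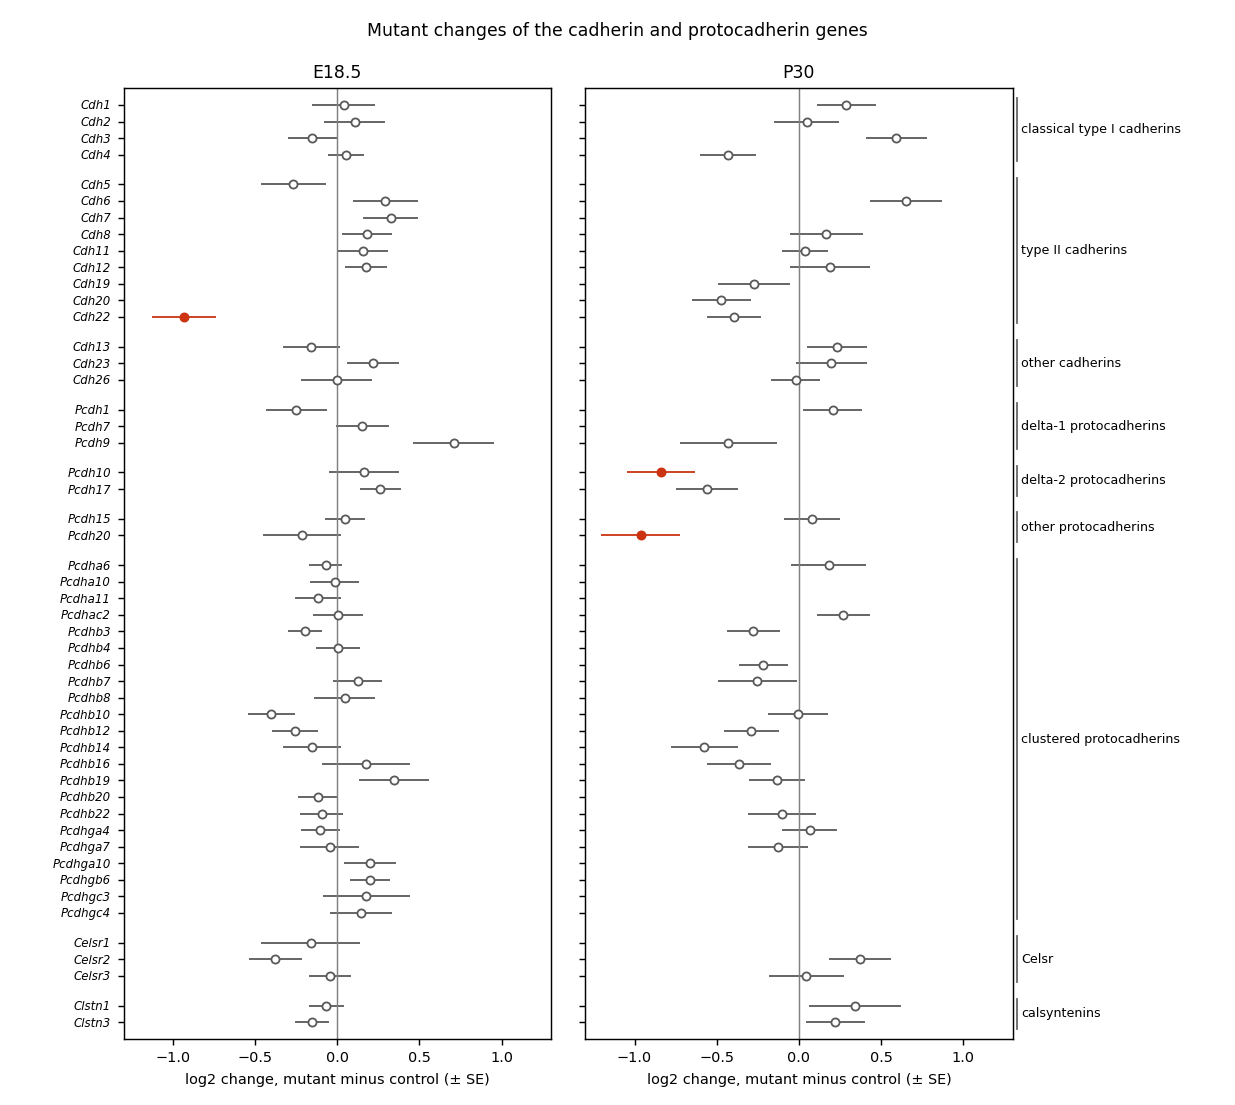
Log2 change, mutant minus control (x axis), of each member (rows, by class) at E18.5 and P30, with SE bars, filled red where the adjusted p was under 0.05. Cdh22 at -0.93 at E18.5 and Pcdh10 and Pcdh20 at -0.84 and -0.96 at P30 are the filled points, and a missing point is a gene not tested at that age. The P30 point of Cdh3 is a fitted value against controls in which its probe was not detected. Pcdh10, Pcdh1 and Cdh23 are read by a different probe at each age.

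Members read by more than 1 detected probe numbered 10. Cdh23, a cadherin of hair cell tip links, had a second probe that differed from the one representing the gene at P30. It was detected on 0 of 8 controls and 6 of 8 mutants, with levels of 4.85, 5.29 and 5.59 in controls and 5.55, 5.92 and 6.32 in mutants. Tested probe by probe it was at least 1.12-fold higher in mutants (adjusted p = 0.0152, limma), where the bound compares the mutants with the dimmest signal that counts as detected. On the P30 arrays this probe met the detection filter only through the mutants. A rise was thus set in advance, and the p-value adds no support for it. The brighter probe differed by 0.20 (adjusted p = 0.749, limma). At E18.5 a second probe of Clstn3, a calsyntenin, was detected on 0 controls and 4 mutants without passing (adjusted p = 0.567, limma), while the brighter one differed by -0.15. The second Clstn3 probe likewise met the filter only through the mutants. Probes of Cdh13 and Cdh2 also differed in sign between each other in a mutant comparison, with changes from -0.20 to 0.24 and none that passed.

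Whether the mutant change differed between the ages was tested directly on the 32 arrays normalized together. No member passed, against 1.85% of 11312 genes (1.03% with a positive and 0.813% with a negative difference). At an unadjusted p under 0.05 there were 7 members in limma, 2 positive and 5 negative, again with no share of all genes beside them. A comparison of the 2 mutant changes carries the different alleles of the ages with it. Pcdh17 came nearest, with a difference of -0.80 (SE 0.22, adjusted p = 0.0526, limma), followed by Cdh3 (adjusted p = 0.0593, limma), whose probe was not detected in P30 controls, so that no size is given. Celsr2 differed by 0.76 (adjusted p = 0.122), Pcdh9 by -1.11 (adjusted p = 0.201) and Cdh4 by -0.58 (adjusted p = 0.210, limma). For Pcdh20 it was -0.74, for Pcdh10 -0.67 and for Pcdhb14 -0.61, with adjusted p between 0.324 and 0.382 in limma. For Pcdh10 this used the probe that changed by -0.50 at P30, not the one that passed there. The result for Pcdh17 and Cdh3 was sensitive to the fit: both passed with the chip as a fixed block (adjusted p = 0.0396 and 0.0368, limma). With the replicate number as a block Pcdh17 (adjusted p = 0.0471) and Pcdh9 (adjusted p = 0.0297) passed in limma. Without the 4 arrays that stood apart Cdh4 passed at -0.81 (adjusted p = 0.0434, limma).

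Between the controls of the 2 ages more cadherin genes passed than in either mutant comparison, as did more genes of all kinds. These controls are the same samples as in the mutant comparisons, so the 3 sets of values are not independent. At P30, 15 of 50 members differed by at least 2-fold with an adjusted p under 0.05, against 23.9% of 11312 genes. Of these, 8 were higher (11.3% of all genes) and 7 lower (12.6% of all genes). The median change was 0.06 over members and -0.01 over all genes, and the median absolute change 0.516 and 0.534. Of the 50 members, 34 met the detection filter on the arrays of each age, 13 through E18.5 alone and 3 through P30 alone. A member that met it only through the age where it is high had to differ in that direction, which holds for 5 of the 15: Cdh5, Cdh7, Celsr1, Cdh19 and Cdh20. Cdh3, also among the 15, was detected on 0 of 8 P30 controls and met the filter at P30 only through 4 mutant arrays. The groups did not overlap for 13 members, 7 higher and 6 lower, against 25% of all genes (11.6% higher and 13.4% lower). Scaling moved this split: with median scaling in place of quantile normalization the median of all genes shifted to -0.53, 13.9% rather than 47.4% of all calls were higher, and members called were 3 higher and 9 lower.

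Among members higher at P30, 3 protocadherins lie together on chromosome 14: Pcdh17, Pcdh20 and Pcdh9, in that order, with 2 other protein-coding genes between the first pair and 0 between the second in RefSeq. Pcdh9 was 4.85, 5.96 and 6.20 in E18.5 controls and 6.94, 7.85 and 8.94 in P30 controls, a change of 2.09 (SE 0.30, adjusted p = 2.34e-07, limma). Pcdh17 was 9.40, 9.99 and 10.32 and then 11.41, 11.80 and 12.22, a change of 1.86 (SE 0.16, adjusted p = 1.78e-12, limma). In neither gene did the ages overlap. Pcdh20 was 7.13, 8.57 and 8.80 and then 8.40, 10.02 and 10.58, a change of 1.48 (SE 0.24, adjusted p = 2.83e-06, limma), and the low P30 control, replicate 5, overlapped with E18.5. With median scaling Pcdh20 fell to 0.71, under 2-fold. In the mutant comparison at P30 the same genes had values of -0.43 for Pcdh9, -0.56 for Pcdh17 and -0.96 for Pcdh20, of which the last passed. Without mutant replicates 1 and 2 they were -0.14, -0.36 and -1.0.

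The other higher members were 2 beta-cluster protocadherins and 3 type II cadherins. Pcdhb12 rose by 1.50 (adjusted p = 1.51e-10, limma), from a median of 6.73 to 8.13, and Pcdhb3 by 1.08 (adjusted p = 8.19e-09, limma), from 8.15 to 9.22. With median scaling their changes were 0.88 and 0.30, under 2-fold, as were those of Cdh8 (0.92) and Cdh20 (0.99) below. Cdh8 rose by 1.40 (adjusted p = 8.25e-07, limma), from 6.17 to 7.43, yet a second Cdh8 probe differed by -0.36 (adjusted p = 0.224, limma). Cdh20 rose by 1.20 (adjusted p = 4.87e-07, limma), with detection on 2 E18.5 and 7 P30 controls and on 0 E18.5 mutants. Cdh19, a cadherin of Schwann and ensheathing glia, was detected on 0 E18.5 and 4 P30 controls and was at least 1.36-fold higher (adjusted p = 2.50e-05, limma). Cdh20 and Cdh19 met the detection filter only through P30, so their rises were set in advance and the p-values add no support for them. Of 7 ensheathing and Schwann glia markers measured, 2 fell and 0 rose, with means of 9.61 to 10.14 at E18.5 and 8.89 to 9.30 at P30. Of 8 oligodendrocyte and myelin markers 7 rose, with means of 7.78 to 8.30 and 11.51 to 11.93, and their part in these rises was not tested.

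Cdh7, a type II cadherin, was near the background at P30. It was 8.08, 8.70 and 9.35 in E18.5 controls and 4.89, 5.46 and 6.77 in P30 controls. Its mean fell from 8.64 ± 0.43 (SD, n = 8) to 5.50 ± 0.59 (SD, n = 8), a change of -3.14 (SE 0.20, adjusted p = 1.35e-15, limma), or 8.84-fold. Its probe was detected on 8 E18.5 and only 1 of 8 P30 controls, so the size rests on P30 values that were mostly not well above background. The probe met the detection filter only through E18.5, so a fall was set in advance and the p-value adds no support for it. P30 control replicate 8, at 6.77, stood above the rest. Cdh7 and Cdh19 follow each other on chromosome 1 with 0 other protein-coding genes between them, and they moved in opposite directions. On chromosome 8 the type II genes Cdh8, Cdh11 and Cdh5 are likewise neighbours. Cdh8 rose by 1.40 and Cdh11 was at 0.18, while Cdh5 was at least 2.55-fold lower. Of the type I neighbours Cdh3 and Cdh1, also on chromosome 8, Cdh3 was at least 1.74-fold lower and Cdh1 was at -0.13.

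Cdh5, the cadherin of endothelial junctions, was 6.79, 7.38 and 8.47 in E18.5 controls and 4.98, 5.17 and 6.01 in P30 controls. It was detected on 8 and then 0 arrays and was at least 2.55-fold lower at P30 (adjusted p = 4.91e-12, limma). Cdh5 met the detection filter only through E18.5, so its fall was set in advance. Of 11 endothelial markers measured, 3 fell (Eng at -2.07, Pecam1 at -1.49 and Tek at -1.42) and 2 rose (Slco1a4 at 2.25 and Ly6c1 at 1.20). The mean of the list ran from 7.51 to 7.91 at E18.5 and from 6.93 to 7.71 at P30, and its part in the Cdh5 result was not tested. Cdh3 was 6.64, 6.85 and 7.58 and then 4.99, 5.14 and 5.55, detected on 8 and then 0 arrays and at least 1.74-fold lower (adjusted p = 1.38e-09, limma). Among the controls its probe was detected at E18.5 alone, so that p-value is not taken as support for the fall. In P30 mutants Cdh3 spanned 5.33 to 7.46 on this scale. Of 11 meningeal and fibroblast markers 10 fell, with means of 9.77 to 10.49 and 7.91 to 8.77, and their part in the Cdh3 result was not tested.

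Cdh4 fell by 1.35 (SE 0.16, adjusted p = 3.69e-09, limma), from a median of 8.92 to 7.66, with no overlap. Of the planar polarity cadherins, Celsr1 was detected on 7 and then 0 arrays and was at least 1.16-fold lower (adjusted p = 7.10e-07, limma). Celsr1 met the detection filter only through E18.5, so its fall was set in advance. Celsr2 fell by 1.13 (adjusted p = 1.28e-06, limma), from 10.43 to 9.32, and was under 2-fold, at -0.95, without E18.5 control replicates 6 and 8. With the mutants of both ages in place of the controls it was at -0.38 and no longer passed (adjusted p = 0.0636, limma). Celsr3 changed by -0.49, under 2-fold. Pcdhb7 fell by 1.03 (adjusted p = 0.000515, limma), from 7.80 to 6.92 with overlapping groups, and was also at -0.95 without those 2 arrays. The 7 falls thus held 2 of 4 type I cadherins, 2 of 9 type II cadherins, 2 of 3 Celsr genes and 1 of 22 clustered protocadherins. Of these 7, 3 (Cdh5, Cdh7 and Celsr1) met the detection filter only through E18.5. Cdh3 met it at P30 only through mutant arrays. With mutants in place of controls, Pcdh9 (0.98), Pcdh20 (0.74), Cdh20 (0.77) and Pcdhb3 (0.99) were under 2-fold too, as were Cdh19 and Cdh3. Without background correction Cdh8, Cdh20, Cdh19, Pcdhb3, Cdh3, Celsr1 and Pcdhb7 were under 2-fold.

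**Figure D4:**
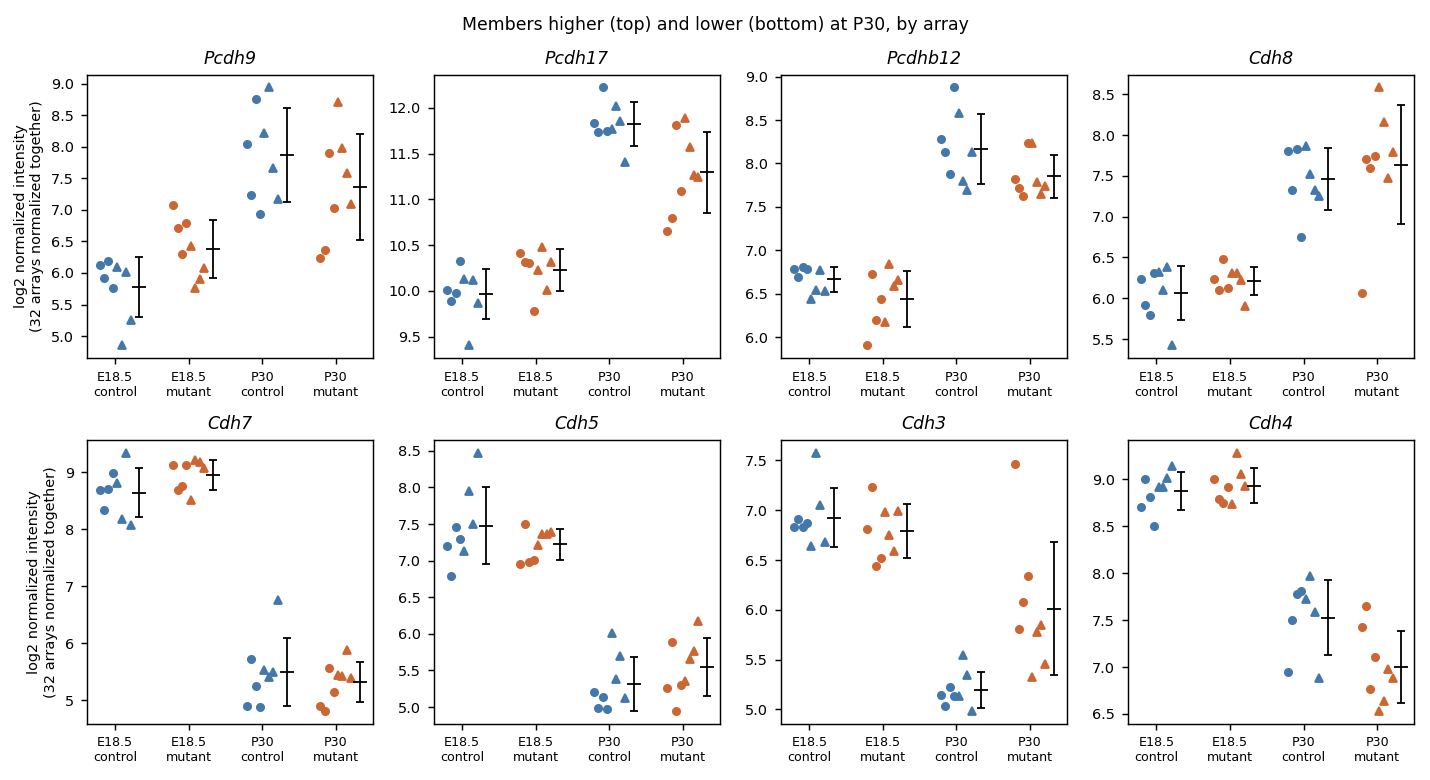
Level on each array (log2 normalized intensity with the 32 arrays normalized together, y axis) of 4 members higher and 4 lower at P30, in the 4 groups. Circles are chip A and triangles chip B, with bars for mean and SD. In each panel the control groups of the ages do not overlap, and Cdh7 drops from a median of 8.70 to 5.46. Cdh7 and Cdh5 met the detection filter only through E18.5, so their falls were set in advance. Cdh3 was detected on 0 P30 controls.

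Further members were detected less often at P30 without meeting the 2-fold condition. Pcdha11 was detected on 7 E18.5 controls and 8 E18.5 mutants and on 0 arrays at P30 (adjusted p = 0.0605, limma). Pcdhgc4 was detected on 5 and 8 arrays at E18.5 and on 0 at P30 (adjusted p = 0.000667, limma). Pcdhga10 was detected on 4 and 8 arrays at E18.5 and 0 and 1 at P30, and Pcdhgb6 on 3 and 6 and then 0 and 0. Pcdh7 of the delta-1 group was detected on 5 and 7 and then 0 and 1 arrays. No fold is given for these 5 genes, since no bound exceeded 1. All 5 met the detection filter only through E18.5. Lower values at P30 were thus set in advance, and the p-values add no support for them. Pcdhb8 was detected on 6 and 4 arrays at E18.5 and on 3 control and 0 mutant arrays at P30, with a difference of 0.22 between the controls. Pcdh10 changed with age by 0.83, and its other probes by 1.69 and 0.55, so that its call depended on the probe. Probes also disagreed for Cdh23, where the dimmer one was detected on 8 E18.5 and 0 P30 controls and was at least 1.14-fold lower (adjusted p = 1.82e-05 probe by probe, limma) while the brighter differed by 0.37. At P30 the dimmer probe was detected only on mutant arrays, so that p-value is not taken as support for a fall. The probes of Pcdh1, a delta-1 protocadherin, gave -0.43 and 0.52, and of those of Celsr3 one gave -0.49 and the other, detected on 0 E18.5 and 2 P30 controls, at least 1.11-fold higher.

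**Figure D5:**
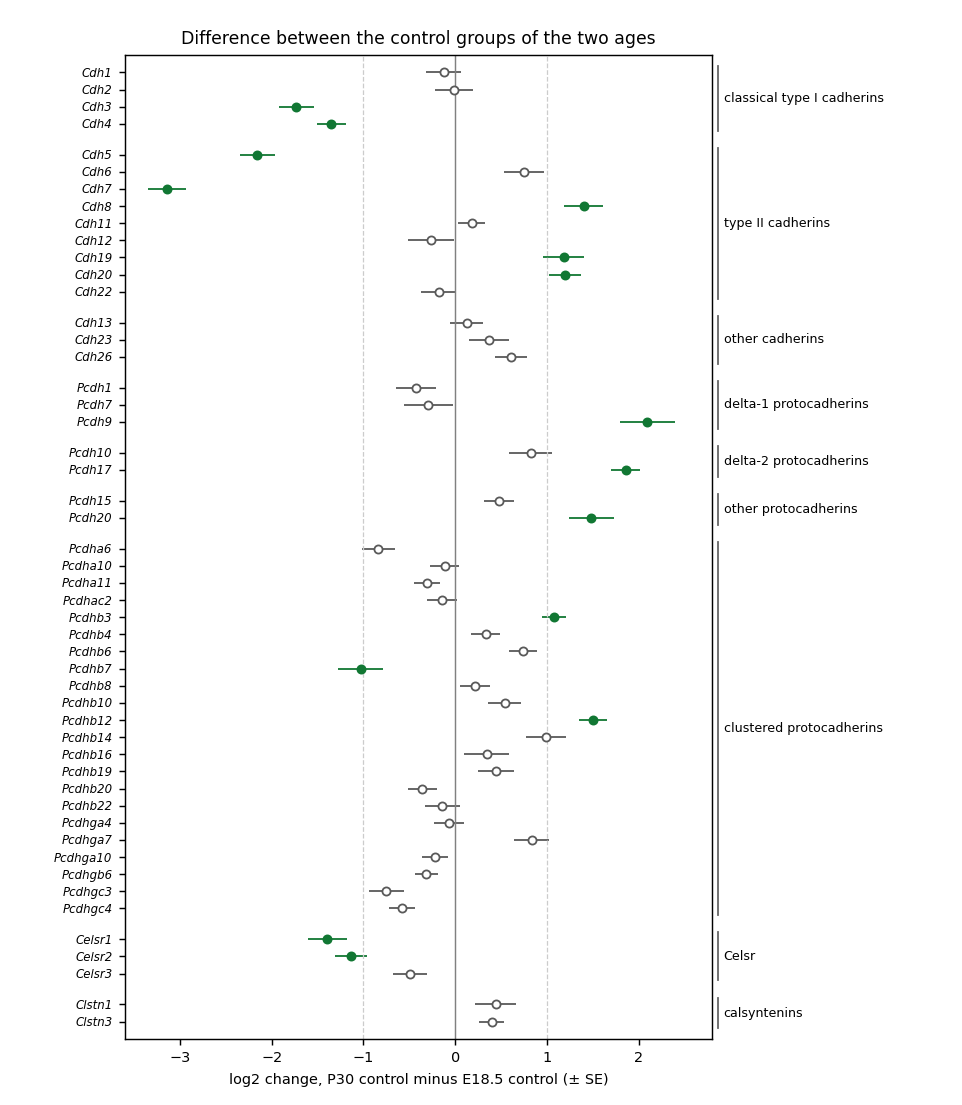
Log2 change, P30 control minus E18.5 control (x axis), of each member (rows, by class) with SE bars, filled green where the adjusted p was under 0.05 and the change at least 2-fold (dashed lines). Cdh7 at -3.14 and Pcdh9 at 2.09 mark the ends, and the points of genes not detected in 1 group, such as Cdh5 and Cdh3, are fitted values rather than bounds. The probe of Cdh7 was detected on 1 P30 control and met the detection filter only through E18.5.

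The proteins that cadherins work with were counted from 5 lists of 95 genes. At E18.5, 0 of 63 measured passed in limma, against 0.581% of all genes. At an unadjusted p under 0.05 there were 2 in limma, a count with no share of all genes beside it. Values with the smallest p there were 0.52 for Ctnnal1, a catenin-like gene, 0.43 for Numb, an adaptor of cadherin endocytosis, 0.33 for the giant cadherin Fat4 and -0.24 for the desmosomal cadherin Dsg2. They were also 0.32 for App and 0.17 for Ncstn, a gamma-secretase subunit, -0.33 for the kinase Ptk2b and 0.27 for the cohesin loader Nipbl. At P30, 3 of 54 rose and 2 fell, against 4.33% of all genes. Ankrd6, the Diversin gene of planar polarity, fell by 1.17 (SE 0.15, adjusted p = 3.74e-05, limma), and Ptk2b, a kinase that protocadherin tails bind, by 1.13 (SE 0.22, adjusted p = 0.00289, limma). Scrib, a polarity scaffold, rose by 0.72 (SE 0.18, adjusted p = 0.0184, limma), and Apba2, an adaptor that binds App and calsyntenins, by 0.70 (SE 0.16, adjusted p = 0.0104, limma). Scrib lost its call with the mean of its detected probes (0.42, adjusted p = 0.124) and with median scaling (adjusted p = 0.114), and Apba2 with median scaling (adjusted p = 0.0780) in limma. On chip A alone none of Ankrd6, Ptk2b, Scrib and Apba2 passed, with adjusted p from 0.0649 to 0.450 in limma.

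Vangl2, a core planar polarity gene, rose by 0.86 at P30 (SE 0.24, adjusted p = 0.0454, limma), a call lost under 17 of 29 alternatives. Among these were leaving out control replicate 1, 2, 6, 7 or 8 or mutant replicate 1, 3, 5, 6 or 7, with adjusted p between 0.0553 and 0.0973 in limma. At E18.5 Vangl2 differed by -0.17 and Ankrd6 by -0.32, without passing. The catenin list had 0 of 14 past the threshold at P30, with Nectin2 at 0.57 (adjusted p = 0.0593) and Ctnnbip1 at 0.60 (adjusted p = 0.0638, limma) nearest. Fjx1 differed by 0.33, Cdhr3 by 0.13, Ncstn by 0.45 and Pdcd10 by -0.59, none of which passed. Between the control groups of the ages, 5 of 63 partner genes were higher and 9 lower, against 23.9% of all genes. The change of Ankrd6 and that of Apba2 differed between the ages, by -1.05 (adjusted p = 0.00144) and 0.85 (adjusted p = 0.0279, limma), against 1.85% of all genes.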

How the data were processed

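Per the labels, total RNA of each bulb sample was extracted with Trizol and RNeasy columns and labelled as biotinylated cRNA. Per the submitters' processing notes, signals were read with GenomeStudio, version not given in the sources used here. Per the file headers, the deposited raw table holds, for 25697 probes on 32 arrays, the mean bead intensity with a p-value for detection. The deposited normalized table, an intensity with 25.7% of its values below 0, served as an alternative. Of the probes, 23978 carry 1 gene symbol, 0 several and 1719 none. No coordinates come from the array files.

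From the deposited intensities, log2 values were made with neqc of limma 3.58.1 in R 4.3.3 (background from the detection p-values, offset 16, quantile normalization). Probes detected (p under 0.05) on at least 4 arrays of a fit entered, each gene by its brightest, which left 10852 genes at E18.5, 9928 at P30 and 11312 over both ages. Unnamed probes count as genes. Differences were tested with lmFit and eBayes, two-sided, on the whole table, with Benjamini-Hochberg adjustment at 0.05, and for ages also at least 2-fold. Fits were also run on simulated data with independent noise and no chip effect, and no recovery rate from them is given here. For arrays, their number limits the precision.

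The members, the gene lists and the tests were chosen with earlier results of these data known. Named are members past the threshold and the 8 smallest p of each mutant comparison and of their difference, up to 8 largest rises and falls with age, members whose probes disagree or that 1 group lacks, and the 2 smallest p of each partner list. Celsr3, Cdh11 and Cdh1 were picked with their values in view, beside neighbours or counts.

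Samples with one number shared a chip. Deviations of E18.5 control and mutant samples of the same number from their group means correlated at 0.118 to 0.355 in 8 pairs. Within chips the range was -0.08 to 0.303, and the chip may carry the correlation. Only 2 controls and 3 mutants correlated best with the sample of their own number. At P30 the range was -0.07 to 0.417, with 4 controls and 2 mutants best with their own number. Pairs are thus not established at either age, and the main fits used no pairing. Alternatives were other normalizations, filters, probe summaries, blocks, single chips and left-out replicates.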

Additional observations from a re-analysis of the deposited data

Results flagged for a closer look

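Among 62 sets of 8 values examined, each a named member in 1 group under 1 normalization, 6 had 1 sample far from the other 7, where chance alone gives about 1 in 20. Of these, 2 are Pcdhb3 in the same group under both normalizations. The measure is the gap to the nearest sample divided by the group's range, with a critical value of 0.526 for 8 samples. Pcdhb3 was highest in E18.5 control replicate 1 (9.07, next 8.75), with a ratio of 0.545, and of 0.549 with the 32 arrays normalized together. Pcdh10 was lowest in P30 control replicate 8 (8.06, next 8.93), with 0.534. Cdh3 was highest in P30 mutant replicate 1 (6.78, next 5.90), with 0.555, one of the arrays that stood apart. Cdh7 was highest in P30 control replicate 8 (6.77, next 5.73), with 0.552, the same array as for Pcdh10. Cdh3 was highest in E18.5 control replicate 6 (7.58, next 7.06), with 0.556. The mutant change differed between the ages for Ankrd6 (-1.05) and for Apba2 (0.853), by limma's test of that difference.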

How the results depend on the processing

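Calls among the cadherin genes moved with the processing. In the reported fits 0.581% (E18.5), 4.33% (P30), 23.9% (ages) and 1.85% (difference of the mutant changes) of all genes passed. The counts below cover members only. Shares of all genes under the alternatives are not given, so the shifts cannot be set against those of all genes. At E18.5 the count of 1 became 0 with median scaling, without background correction, without a detection filter, with the 32 arrays normalized together, and on chip A or chip B alone, and leaving out single replicates gave 0 to 1. Cdh22 lost its call in 14 of 29 alternatives, with adjusted p from 0.00844 to 0.861 and a change from -1.12 to -0.47 in limma. At P30 the count of 2 became 1 with median scaling and on chip A, 0 on chip B, 7 with the 32 arrays together (1 of them, Pcdh20, shared with the reported pair) and 4 without mutant replicates 1 and 2. Single replicates left out gave 2 to 4. Without a detection filter the 2 were Pcdh10 and Pcdhgc4, whose probe was detected on 0 P30 arrays and so read background there. With the chip as a block Cdh3 joined the reported pair, for 3. Between ages, 15 became 8 without background correction, 9 with mutants in place of controls and 29 without the 2-fold condition. For the difference of the mutant changes, 0 became 1 without background correction, with the deposited normalized values and with the mean of the detected probes, 2 with the chip block and 1 without the 4 arrays that stood apart. Leaving out arrays that stood apart was chosen after seeing the data. With the replicate number as a block the counts were 1, 2 and 15, and 2 for the difference of the mutant changes, where the numbers are not established as pairs at either age. The block changed no other call. Signs reversed for Ncstn at E18.5 (-0.0507, mean of the detected probes) and Cdhr3 at P30 (-0.0866, without mutant replicates 1 and 2). The causes of these shifts were not tested. Chip A or chip B alone leaves 4 arrays a group. Signal near background limits the genes detected on few arrays of a group.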
